A study of Mus musculus with 6 samples.

Results

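The lysyl oxidases are a family of copper-dependent, secreted amine oxidases, and their messenger RNA was followed here in mouse intestinal crypts with and without an activated form of the transcriptional coactivator YAP. The members were the 5 genes Lox, Loxl1, Loxl2, Loxl3 and Loxl4, chosen by name. Every probe set annotated to one of these symbols alone was read, and where a gene had several, the one with the highest mean signal across all 6 arrays gave the main value. This gave 4 measured members on 5 probe sets, of 19938 genes and 21789 probe sets with 1 symbol. The probe set annotated to Loxl2 carries 2 gene symbols, so Loxl2 was not analysed here. The family was proposed after Loxl4 had been seen among the genes with the largest increases in these arrays. The Loxl4 difference is therefore given as a description, with no test.

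Lysyl oxidases remove the amino group from lysine and hydroxylysine side chains of collagen and elastin, and the aldehydes that result join neighbouring molecules into crosslinks. All members share a catalytic domain at the carboxy-terminal end that binds copper and carries a lysine tyrosylquinone cofactor. Lox and Loxl1 are made with a propeptide, whereas Loxl2, Loxl3 and Loxl4 carry scavenger receptor cysteine-rich (SRCR) domains instead. In most tissues these enzymes are known as products of fibroblasts and smooth muscle, and YAP is known to act on gene expression through TEAD transcription factors.

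The 3 YAP Tg mice carried, by the series title, YAP-S127A, which lacks a serine that the Hippo kinases use to inhibit YAP, under doxycycline control through Villin-rtTA. The Villin promoter drives the doxycycline-dependent activator in intestinal epithelium. After 2 days of doxycycline, crypts were released from the washed intestine with EDTA. The 3 control mice are labelled only as control, and the labels do not say which alleles they carried or whether each received doxycycline, so YAP and the drug cannot be told apart. The labels name no strain, age or intestinal segment. Each sample was taken as 1 mouse with 1 array, and values are log2 signals deposited by the authors.

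With 3 arrays in each group the number of arrays limits precision, and an exact two-sided permutation test of 3 against 3 arrays cannot go below p = 0.1. Of all genes tested, limma called 14.2% at an adjusted p below 0.05, of which 1495 were higher in YAP Tg crypts and 1336 lower. These counts ran from 669 to 2802 higher and from 369 to 3889 lower when 1 array at a time was left out, with the most calls without YAP Tg 2. Probe sets presumed from their numbers to be array controls had median log2 signals of 4.97 to 4.99 on control and 5.03 to 5.33 on YAP Tg arrays, and these medians serve below as a mark of background. Yap1 itself stood at 9.43, 9.48 and 9.30 in controls and at 8.98, 9.27 and 9.25 in YAP Tg crypts (limma's adjusted p = 0.184), and the sources used here do not say whether its probe set covers the transgene, so it does not check the labels.

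Loxl4 lies on mouse chromosome 19, and its promoter is shown because Loxl4 is the member whose signal differed most between the groups. The 250 bases upstream of the start of the gene (RefSeq, GRCm38.p6, chr19:42612807-42613056, minus strand, 5′ to 3′) are given with CpG dinucleotides in capitals. Of the 5 members, only Loxl4 matched an entry of the promoter table.
Loxl4: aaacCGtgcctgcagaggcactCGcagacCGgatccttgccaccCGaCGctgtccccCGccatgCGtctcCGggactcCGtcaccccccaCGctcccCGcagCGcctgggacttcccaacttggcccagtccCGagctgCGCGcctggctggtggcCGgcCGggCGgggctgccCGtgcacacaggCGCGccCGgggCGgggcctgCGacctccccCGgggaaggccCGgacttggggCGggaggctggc
The stretch had a GC content of 76.0%, against a median of 52.4% over 32851 promoters of that table cut to the same length, and 96.7% of them had a lower content. It held 27 CpG dinucleotides, against a median of 6, and 91.4% of promoters held fewer. The core TEAD motif GGAATG was searched on both strands and had 0 matches in it, while 12.6% of all promoters held at least 1. The AP-1 motif TGANTCA also had 0 matches, against 6.75% of promoters holding it. These counts say only that the letters are not in this window.

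Loxl4 encodes a secreted member with SRCR domains, and its transcript was low in control and high in YAP Tg crypts. On the main probe set, 10467768, it stood at 5.82, 5.99 and 6.16 in control mice 1, 2 and 3, and at 11.10, 9.44 and 10.38 in YAP Tg 1, 2 and 3. The groups did not overlap, and the lowest YAP Tg value lay far above the highest control value; the groups did not overlap for 33.6% of all genes, 16.5% with YAP Tg higher and 17.0% with YAP Tg lower. The means were 5.99 ± 0.17 (SD, n = 3) and 10.31 ± 0.83, a log2 difference of 4.32 (SE 0.40), or 20.0-fold. All 6 values lay above the median of the array control probe sets. In bulk crypt RNA, more cells that make a transcript and more transcript per cell cannot be told apart.

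A second probe set for Loxl4, 10467766, reads other probes of the same gene on the same arrays. It stood at 4.89, 4.65 and 4.63 in control mice and at 9.46, 7.77 and 8.67 in YAP Tg 1, 2 and 3. The YAP Tg mice thus stood in the same order on both probe sets, with YAP Tg 1 highest and YAP Tg 2 lowest. The measured log2 difference was 3.91 (SE 0.40), or 15.0-fold. All 3 control values of this probe set lay below the median of the array control probe sets, so its measured difference rests on signals under the background mark. Taken against the mean of that median over the 3 control arrays in place of the control values, YAP Tg crypts were 12.6-fold higher. The median was higher on the YAP Tg arrays (5.33, 5.15 and 5.03), so this value is not a lower bound.

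**Figure D1:**
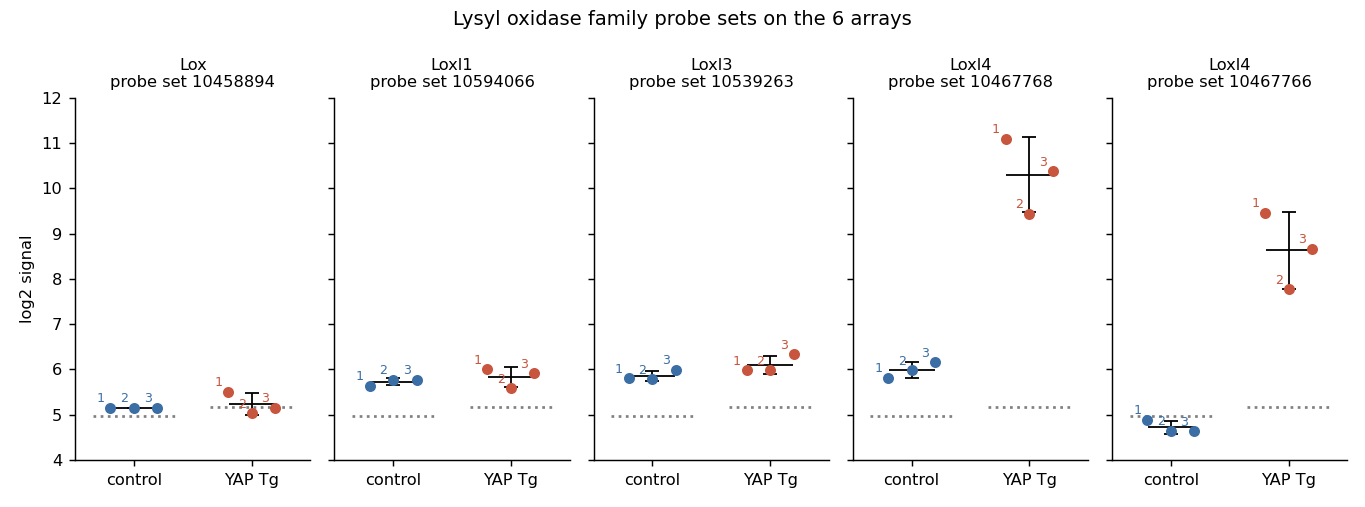
The log2 signal (vertical axis) of each of the 5 lysyl oxidase family probe sets on 3 control arrays (blue) and 3 YAP Tg arrays (red); small numbers are the mouse numbers, horizontal lines and bars the mean and SD, and dotted lines the mean over the 3 arrays of the median of the array control probe sets. Both Loxl4 probe sets separate the groups, while Lox, Loxl1 and Loxl3 lie between 5.04 and 6.33 on every array.

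The 3 YAP Tg mice differed in how much Loxl4 they had. Against the control mean, the main probe set was 34.5-fold higher in YAP Tg 1, 10.9-fold in YAP Tg 2 and 21.1-fold in YAP Tg 3, so that the highest and lowest YAP Tg mice differed 3.16-fold from each other. Among the 110 genes with a log2 difference of 2 or more, the median SD over the YAP Tg arrays was 0.47, and 79.1% had a smaller SD than Loxl4. Of these 110 genes, 46 had the 3 mice in the same order as Loxl4. How many of all genes had that order was not counted. The upper quartile of all genes tested was 8.45, 8.66 and 8.49 in YAP Tg 1, 2 and 3 and 8.60 to 8.69 in controls. The lower quartile was 5.52, 5.43 and 5.57, and 5.41 to 5.47 in controls. By both quartiles YAP Tg 2 was the array most like the controls, and the part of this in the order was not tested. The summed signal of 22 YAP/TEAD targets was 13584, 10500 and 11194 in YAP Tg 1, 2 and 3 and 4093 to 5230 in controls. That of 8 markers of the crypt base and cycling cells was 9383, 15667 and 12542 in YAP Tg 1, 2 and 3 and 22795 to 25368 in controls. Lyz1, which was not called (limma's adjusted p = 0.158), had the highest signal of that list on every array and so weighs most in its sum. The target sum had the same order of mice as Loxl4 and the crypt base sum the reverse. The order was not particular to these lists: the sums of smooth muscle markers (485, 422 and 478), endothelial markers (529, 477 and 502) and villus enterocyte markers (61093, 43866 and 53400) ran in it too. The order also depended on the measure. The median log2 difference of the targets from the control mean was 1.16, 0.68 and 0.60 in YAP Tg 1, 2 and 3. By that measure YAP Tg 2 lay above YAP Tg 3, unlike for Loxl4. Medians of smooth muscle markers (0.12, 0.01 and 0.18) left the order too. Those of crypt base (-1.65, -0.93 and -1.22), endothelial and villus enterocyte markers kept the order of their sums. With 3 mice no correlation was computed, and the part of any of these measures in the Loxl4 values was not tested.

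The other members were at low signal in both groups. Lox, the founding member, which crosslinks fibrillar collagen and elastin, read 5.15 on each of the 3 control arrays and on YAP Tg 3, 5.51 on YAP Tg 1 and 5.04 on YAP Tg 2. The 4 equal values are identical to every digit deposited, and 761 genes, 3.82% of those tested, had at least 4 identical values among the 6 arrays. The control SD of 0 for Lox is therefore not a measure of its spread. Its log2 difference was 0.08 (SE 0.13, 95% interval -0.23 to 0.39, limma's adjusted p = 0.703).

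Loxl1, which is known for its part in elastic fibre maintenance, stood at 5.643, 5.777 and 5.777 in controls and at 6.001, 5.580 and 5.921 in YAP Tg 1, 2 and 3. YAP Tg 2 lay below all 3 controls and the other YAP Tg mice above them, so the groups overlapped. Its log2 difference was 0.10 (SE 0.12, 95% interval -0.20 to 0.40, limma's adjusted p = 0.622).

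Loxl3, a member with SRCR domains like Loxl4, stood at 5.80, 5.78 and 5.99 in controls and at 5.98, 5.98 and 6.33 in the YAP Tg mice. YAP Tg 3 was the highest array, and the other YAP Tg values lay just below the highest control. The log2 difference was 0.24 (SE 0.12, 95% interval -0.06 to 0.54, limma's adjusted p = 0.245).

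Of Lox, Loxl1 and Loxl3, 0 passed limma's adjusted threshold and 0 had an unadjusted p below 0.05, where 14.2% and 29.9% of all genes did. The upper ends of their intervals were 0.39, 0.40 and 0.54 on the scale of the probe sets. Each of the 3 genes had identical values on some arrays, and these enter the spread behind the intervals. The ends are therefore not firm bounds on an increase. Signals this near the array control medians can understate a change.

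The genes with a pattern most like that of Loxl4 were found by the root mean square distance over the 6 arrays, after each gene was set relative to its control mean. The nearest was Ccn1, a secreted matricellular protein and a known YAP/TEAD target, at a distance of 0.46 (Pearson's r = 0.979 over 6 arrays). It was followed by Pla1a, a phospholipase acting on phosphatidylserine (0.46, r = 0.993), Psca, a membrane-anchored protein of the Ly6 family (0.47, r = 0.983), Gcnt1, a glycosyltransferase of mucin-type sugar chains (0.47, r = 0.988), and Gml, also of the Ly6 family (0.48, r = 0.998). These r values mostly reflect the step between the groups and are a description. The genes differed in the spread between mice: relative to the control mean, Ccn1 stood at 4.61, 4.43 and 4.42 on the log2 scale in YAP Tg 1, 2 and 3, where Loxl4 stood at 5.11, 3.45 and 4.40. Gml stood at 6.02, 4.11 and 4.71, in the same order of mice as Loxl4.

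**Figure D2:**
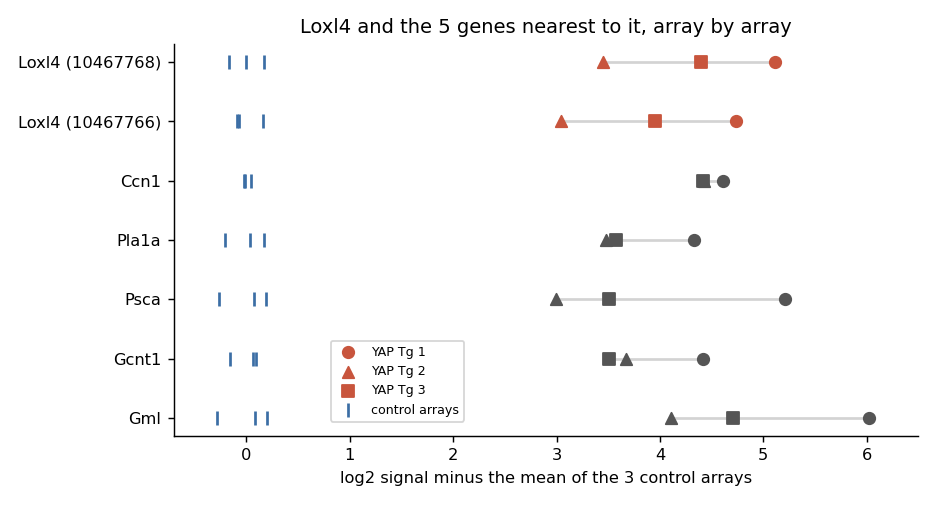
Log2 signal minus the mean of the 3 control arrays (horizontal axis) for both Loxl4 probe sets (red) and the 5 genes nearest to the main one (grey); circles, triangles and squares are YAP Tg 1, 2 and 3, and blue ticks the control arrays. The 3 mice lie close together for Ccn1 and far apart for Loxl4, Psca and Gml.

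The genes next to Loxl4 on the chromosome were not called higher. Of its 10 nearest protein-coding neighbours in RefSeq order, 5 on each side and all measured, 0 were higher and 2 were lower by limma's test, and 0 and 2 at an unadjusted p below 0.05 (7.50% of all genes were called higher and 6.70% lower). The unadjusted share over all genes was 29.9% in either direction. Pyroxd2, the neighbour on one side, which encodes a pyridine nucleotide-disulphide oxidoreductase domain protein, stood at 7.75, 7.31 and 7.66 in controls and at 6.21, 6.23 and 6.69 in YAP Tg 1, 2 and 3. This is a log2 difference of -1.20 (SE 0.18, limma's adjusted p = 0.00857). R3hcc1l, the neighbour on the other side, differed by -0.05 (limma's adjusted p = 0.660). Sfrp5, a secreted Wnt antagonist, fell by 1.15 (SE 0.24, limma's adjusted p = 0.0262). The call of Pyroxd2 was lost without control mouse 3 (adjusted p = 0.0525), and that of Sfrp5 without control mouse 1 or 3 or YAP Tg 1 or 3 (up to 0.112).

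**Figure D3:**
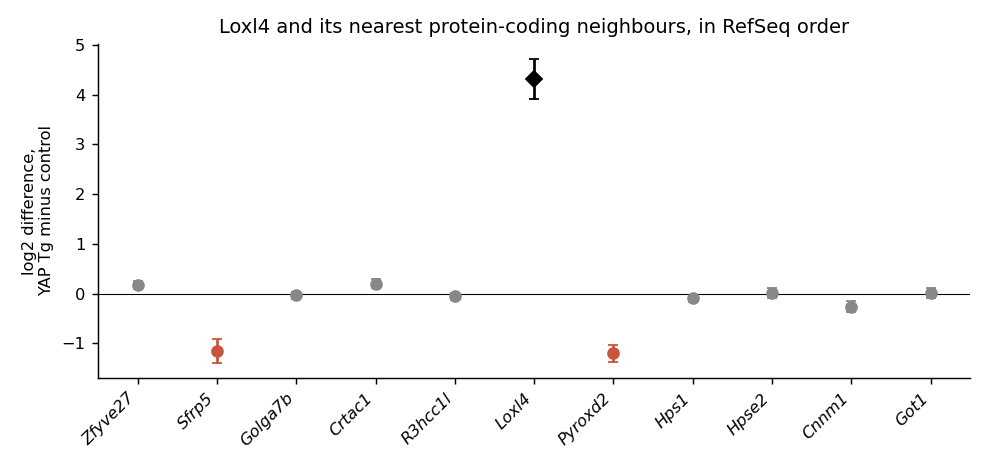
Log2 difference between YAP Tg and control crypts with its SE (vertical axis) for Loxl4 (black diamond) and its 5 nearest protein-coding neighbours on each side, in RefSeq order without distances; red marks genes with limma's adjusted p below 0.05. Loxl4 stands at 4.32, and Pyroxd2 and Sfrp5 at -1.20 and -1.15.

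No gene on the lists of lysyl oxidase substrates and matrix partners passed limma's test with all 6 arrays, where 14.2% of all genes did. An unadjusted p below 0.05 was found for 29.9% of all genes. Of 12 fibrillar collagen chains and elastin, 0 were higher and 0 lower (1 and 0 at an unadjusted p below 0.05), with log2 differences from 0.05 to 0.31 and a median of 0.13, against a median of 0.03 over all genes. The 2 with the smallest p were Col27a1 (0.31, limma's adjusted p = 0.140) and Col11a1 (0.16, 0.219). Of 6 chains of collagen IV, the collagen of basement membranes, 0 were called (0 unadjusted), with a median of 0.15; Col4a5 differed by 0.20 and Col4a1 by 0.16. Of 10 measured elastic fibre genes and matrix partners, 0 were called (0 unadjusted), with a median of 0.07; Mfap2, a microfibril protein, differed by 0.24 and the fibrillin Fbn2 by 0.09. Without YAP Tg 2, 2 fibrillar chains, 1 collagen IV chain and 1 matrix partner were higher. Many of these genes had low signals, as Lox, Loxl1 and Loxl3 did. Control means were 5.78 (Col4a5) to 6.46 (Col4a2) for collagen IV and 4.52 (Postn) to 7.01 (Fn1) for the matrix partners. Low signals can understate a change, so the absence of calls does not show that these genes were unchanged.

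Genes that process lysyl oxidases and procollagen moved both ways. Of 7 measured, 2 rose and 1 fell, where 7.50% of all genes were called higher and 6.70% lower. Pcolce, which enhances the cleavage of procollagen by Bmp1, stood at 6.59, 6.73 and 6.70 in controls and at 7.78, 7.48 and 7.74 in YAP Tg mice. It rose by 0.99 (SE 0.10, limma's adjusted p = 0.00278). Pcsk6, a proprotein convertase, rose by 1.53 (SE 0.25, limma's adjusted p = 0.0116). Bmp1, the protease that cleaves the propeptide of Lox and of procollagen, stood at 8.22, 7.93 and 8.19 in controls and at 7.52, 7.40 and 7.73 in YAP Tg mice. It fell by 0.57 (SE 0.12, limma's adjusted p = 0.0299). Without control mouse 1 or 3 the list had 1 gene higher, Pcolce, and 0 lower, and without YAP Tg 1 or under quantile normalization Bmp1 was not called.

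Copper, which lysyl oxidases need, is taken up and handed on by a set of transporters and chaperones, and of 12 such genes 2 rose and 4 fell. Over all genes, 7.50% were called higher and 6.70% lower. Slc31a2, a relative of the copper importer, rose by 1.60 (SE 0.14, limma's adjusted p = 0.00187). It stood at 9.21, 9.44 and 9.19 in controls and at 10.95, 10.60 and 11.07 in YAP Tg mice. Ccs, the copper chaperone of superoxide dismutase, changed by -0.69, the metalloreductase Steap3 by -1.33 and the copper exporter Atp7b by -0.93, with limma's adjusted p from 0.0131 to 0.0263. The other called genes, named after their values were seen, were Cox17 (0.81) and the metallothionein Mt1 (-1.53). Without control mouse 1, 2 or 3 the counts were 1 higher with 1, 0 and 0 lower, and without YAP Tg 3 they were 1 higher and 2 lower.

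Of 15 measured genes of collagen hydroxylation and folding, which modify collagen inside the cell, 2 rose and 0 fell (4 and 1 unadjusted), a share near the 14.2% called over all genes. At an unadjusted p below 0.05 the share over all genes was 29.9%. P4ha1, a subunit of prolyl 4-hydroxylase, rose by 1.23 (SE 0.17, limma's adjusted p = 0.00736), from 6.49, 6.64 and 6.81 to 8.05, 7.52 and 8.07. Plod2, a lysyl hydroxylase, rose by 0.38 (limma's adjusted p = 0.0365), with a mean signal below the median of the array control probe sets. The call of Plod2 was also lost under quantile normalization (adjusted p = 0.0777) and with the replicate block (0.0571). The count was 1 without any 1 control or YAP Tg 1 and 4 without YAP Tg 2.

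Of 9 other crosslinking enzymes and copper amine oxidases, 1 rose and 1 fell, against 7.50% called higher and 6.70% lower over all genes. Tgm2, a transglutaminase, which joins proteins by another chemistry, rose by 1.00 (SE 0.21, limma's adjusted p = 0.0258). Aoc1, diamine oxidase, an amine oxidase of enterocytes with copper and a different quinone cofactor, stood at 13.04, 12.77 and 12.84 in controls and at 9.61, 10.59 and 11.83 in YAP Tg 1, 2 and 3. It changed by -2.20 (SE 0.52, limma's adjusted p = 0.0406). Both calls were lost when control mouse 1, 2 or 3 or YAP Tg 1 was left out (adjusted p up to 0.152), and without YAP Tg 2 there were 2 higher and 0 lower.

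Of 14 other genes whose proteins carry SRCR domains, as Loxl4 and Loxl3 do, 2 rose and 1 fell. The shares called over all genes were 7.50% higher and 6.70% lower. The SRCR genes that rose were Cd6 (0.66, limma's adjusted p = 0.00808) and Cd5 (0.43, 0.0126), both receptors of T cells. The one that fell was the serine protease Prss12 (-0.48, 0.0188). Without any 1 control the counts were 1 higher and 0 lower, and without YAP Tg 2 there were 3 lower. Beside Cd5 and Cd6, 7 of 8 T cell markers were higher, and their summed signal was 6865 to 8170 in controls and 17181 to 22339 in YAP Tg crypts. The part of T cell RNA in the Cd5 and Cd6 values was not tested.

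Genes known to accompany lysyl oxidases in other settings were also read. Lysyl oxidases are known to be part of the hypoxia response. Of 18 genes of that response, 5 rose and 1 fell (10 and 2 unadjusted), with a median of 0.48. Called over all genes were 7.50% higher and 6.70% lower, and 29.9% had an unadjusted p below 0.05 in either direction. The glucose transporters Slc2a1 (1.06, SE 0.08, limma's adjusted p = 0.00116) and Slc2a3 (0.95), the peptide hormone Adm (2.40) and the glycolytic enzyme Pgk1 (0.53) rose. Named after their values were seen, the oxygen sensor Egln3 (1.44, limma's adjusted p = 0.0434) rose and Pdk1 (-0.82, 0.0498) fell. Over 14 alternatives the call of Pdk1 was lost in 7 and those of Egln3 and Pgk1 in 6 each. Without any 1 control the counts were 2 higher and 0 lower, without YAP Tg 1 there were 0 lower, and without YAP Tg 2 there were 8 and 2.

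Snail is a known partner of Loxl2 and Loxl3, and of 9 factors of the Snail, Zeb and Twist families and mesenchymal genes 3 rose and 0 fell. Over all genes, 7.50% were called higher and 6.70% lower. The repressors Zeb1 (0.77) and Zeb2 (0.31) and the intermediate filament Vim (0.95) had limma's adjusted p from 0.0118 to 0.0367. The count was 0 without any 1 control and 1 without YAP Tg 1. The call of Zeb2 was also lost without YAP Tg 3 (adjusted p = 0.0888), under quantile normalization (0.0892) and with the replicate block (0.101). These genes are also known in leukocytes, and 7 of 8 T cell and 4 of 8 macrophage markers were higher on the same arrays; their part in the Zeb1, Zeb2 and Vim values was not tested. The YAP/TEAD targets had 11 of 22 higher and 0 lower, with a median of 0.81; several were known to rise in these arrays when the list was written. Ccn1 (4.49), Ajuba, a LIM-domain protein (3.94), Wwc1, which encodes Kibra (2.02), and Lats2, a Hippo kinase (1.65), had the smallest p of that list. The Loxl4 difference of 4.32 lay between those of Ccn1 and Ajuba.

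**Figure D4:**
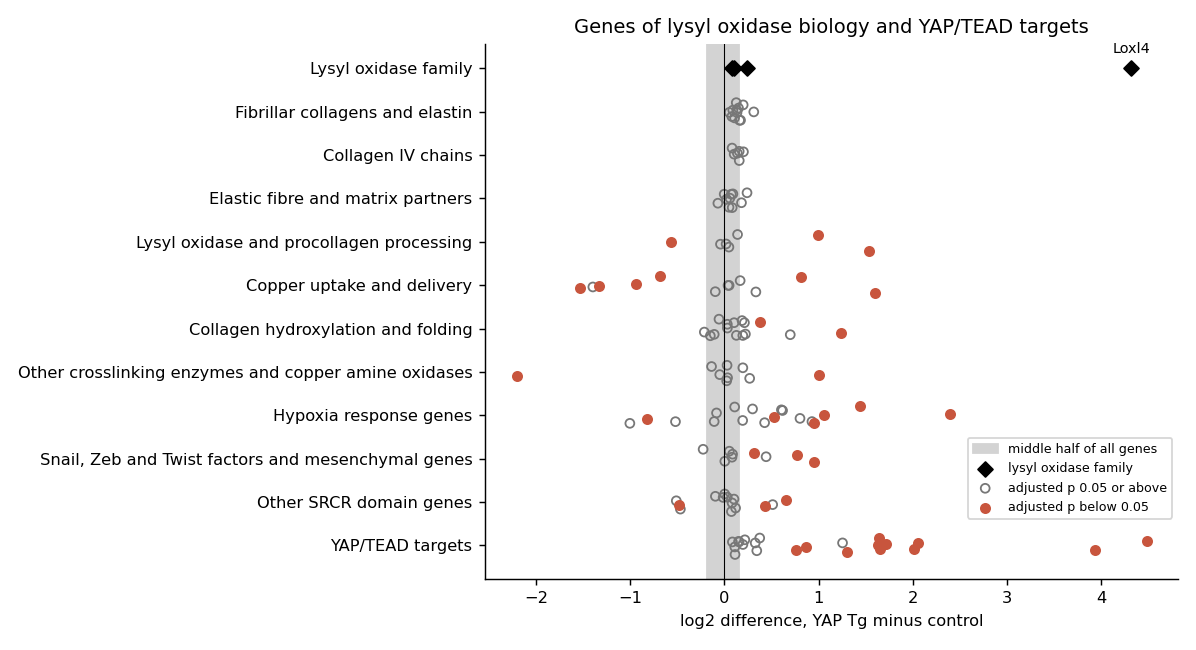
Log2 difference between YAP Tg and control crypts (horizontal axis) for the 4 measured lysyl oxidases (black diamonds) and the genes of 11 lists (circles), with red for limma's adjusted p below 0.05 and a grey band from -0.18 to 0.16 for the lower to the upper quartile of all genes. Loxl4 stands apart from the other 3 members. The fibrillar collagen and elastin genes lie from 0.05 to 0.31, collagen IV chains from 0.08 to 0.20 and elastic fibre genes from -0.07 to 0.24, some of them above the grey band.

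Markers of the cells that make lysyl oxidases in most tissues stood beside Loxl4 as follows. Their counts stand against 7.50% called higher and 6.70% called lower over all genes, and unadjusted counts against 29.9% at a p below 0.05. Of 12 fibroblast markers, 1 was higher and 0 lower; it was Thy1 (0.57, SE 0.07, limma's adjusted p = 0.00485), also known on T cells, and the means of Lum, Ogn and Dpt over the 6 arrays lay below that of the medians of the array control probe sets. The summed fibroblast signal was 782 to 1226 in controls and 935 to 1221 in YAP Tg crypts, so the groups overlapped. The highest control sum came from control mouse 2, where Dcn, a proteoglycan of fibroblasts, stood at 8.78, against 5.51 and 6.29 in the other controls. Of 8 smooth muscle and pericyte markers, 0 were called (1 higher unadjusted), with summed signals of 414 to 445 and 422 to 485. Of 8 endothelial markers, 0 were called (1 higher and 1 lower unadjusted), with 475 to 501 and 477 to 529, and of 5 markers of enteric glia and neurons 0 were called (1 higher unadjusted), with 228 to 268 and 239 to 278. Without YAP Tg 2, 4 fibroblast and 1 smooth muscle marker were higher. The summed signals of YAP Tg over control crypts were 1.17-fold for fibroblast, 1.09-fold for smooth muscle and 1.04-fold for endothelial markers. Control means were 4.75 (Rgs5) to 6.17 (Acta2) for smooth muscle and 4.13 (Emcn) to 6.76 (Esam) for endothelial markers. Many of these lay near the array control medians. Background is therefore part of such sums, and these ratios can understate a change. The part of stromal cells in the Loxl4 difference was not tested.

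Markers of other cell types differed between the groups in part. For comparison, 7.50% of all genes were called higher and 6.70% lower. Of 8 macrophage markers, 4 were higher, namely Csf1r, C1qb, C1qc and Cd68. Without control mouse 1, 2 or 3 the counts were 1, 2 or 1 higher, and without YAP Tg 2 1 was lower. Their summed signals were 1196 to 1496 in controls and 1234 to 1542 in YAP Tg crypts. Lyz2, which was not called (-0.37, limma's adjusted p = 0.233), had the highest signal of that list on every array. It therefore weighs most in the macrophage sum. Of 9 markers of intestinal epithelium, the tissue the labels name, all lay above the median of the array control probe sets, 3 were higher and Cdx1 was lower, with summed signals of 42843 to 46124 and 53558 to 55066; without any 1 control or YAP Tg 3 there was 1 higher, and Cdx1 was not called without control mouse 3. Of 8 markers of the crypt base and cycling cells, 5 were lower (3, 3 or 2 without control mouse 1, 2 or 3, and 8 without YAP Tg 2). With all arrays these were Ascl2, Smoc2, Olfm4, Lgr5 and Axin2. The cycling markers Mki67 (limma's adjusted p = 0.185) and Top2a (0.344) were not called. Of 6 of villus enterocytes 2 were lower, Fabp1 and Fabp2 (1 without control mouse 3, and 2 higher besides without YAP Tg 2). Ada, Alpi and Apoa1 were not called but lay above the controls on all YAP Tg arrays, as did 16.5% of all genes. The median of the villus list was 0.09. The part of these shifts in the Loxl4 difference was not tested.

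**Figure D5:**
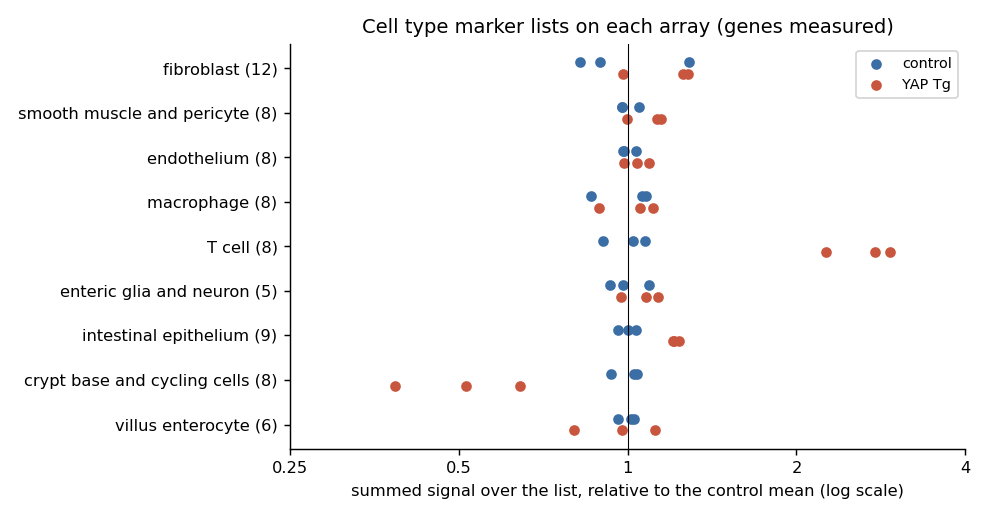
Summed signal of each marker list relative to the control mean (horizontal axis, log scale) on 3 control (blue) and 3 YAP Tg (red) arrays, with the number of genes measured in brackets. The fibroblast, smooth muscle and endothelial sums overlap between the groups, the T cell sums are higher on all 3 YAP Tg arrays and the crypt base sums lower.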

How the data were processed

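RNA from 6 mice was measured on 1 Affymetrix mouse gene array each. The authors deposited log2 signals of 35556 probe sets, and the submitters' processing notes name Affymetrix Expression Console version 1.1; that the scale is log2 follows from the range of values (1.99 to 14.4), and how background and normalization were handled is not given in the sources. The 6617 probe sets numbered below the first annotated one were taken to be array controls. Of the other 28939, 21789 had 1 gene symbol, 1621 several and 5529 none listed; 21698 were matched by Entrez identifier to RefSeq (GRCm38.p6). Each of 19938 genes was read from its probe set with the highest mean.

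Groups came from the sample titles. Differences (YAP Tg minus control) were tested in R 4.3.3 by limma 3.58.1 (a two-sided moderated test without covariates), and Benjamini-Hochberg adjusted p-values over all genes were called below 0.05; the fit was checked on simulated data. Summed signals are sums of 2 to the power of the log2 signal. The members and lists were chosen with earlier results of these data known. Genes named were the members, Yap1, up to 4 called genes per list with the smallest p (otherwise 2), and the 5 nearest to Loxl4; markers, chromosomal neighbours and others marked in the text were added after their values were seen. Alternatives tried were each array left out, a replicate block, quantile normalization, median centring, a signal filter, other priors, array weights, averaged or separate probe sets and other thresholds.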

Additional observations from a re-analysis of the deposited data

How the results depend on the processing

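The Loxl4 log2 difference was 3.92 to 4.75 over 14 alternatives, all above 0, and 3.92 to 4.75 when 1 array was left out. Lox, Loxl1 and Loxl3 passed the threshold under none of 13 alternatives each (lowest adjusted p = 0.289, 0.0728 and 0.0609). The Lox difference turned to -0.0564 without YAP Tg replicate 1 and to -0.00591 under quantile normalization. Leaving out 1 array gave -0.0564 to 0.18 for Lox, 0.02 to 0.23 for Loxl1 and 0.12 to 0.31 for Loxl3. Under the filter on mean signal these 3 genes were not tested. Genes called higher and lower numbered 669 to 2802 and 369 to 3889 with 1 array left out, 2459 and 3481 with array weights, 661 and 386 at an adjusted p below 0.01, and 519 and 468 with at least a 2-fold difference. Same-numbered control and YAP Tg arrays had deviations correlated at -0.13, 0.01 and 0.10, so the numbers were not taken as pairs; with the replicate block 975 genes were higher and 727 lower. Of 560 counts of the gene lists under alternatives, 464 stayed within 1.5 times and 96 moved. Counts of 0 that stayed 0 are among the 464, and many list counts were 0 with all arrays. The split therefore does not measure the stability of the counts above 0. Low signal limits Lox, Loxl1, Loxl3 and the controls of the second Loxl4 probe set.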
